A study of Mus musculus with 6 samples.

Results

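The 6 genes described here, Gm29216, Gm28661, Gm10925, Gm28437, Gm10222 and Gm28439, are annotated in the mouse genome as unprocessed pseudogenes, and each lies in a copy of mitochondrial DNA carried on chromosome 1. They were chosen by name because they took a large share of summed FPKM in the deposited gene table, 6 of its 14956 genes, so their high level is a description here and not a result. FPKM is the number of sequenced fragments assigned to a gene, scaled by the length of its transcripts and by the size of the library. Mitochondria keep a small circular genome that encodes core subunits of the respiratory chain and of ATP synthase, the rRNAs of the mitochondrial ribosome and a set of tRNAs. Pieces of that genome have been inserted into nuclear chromosomes during evolution and are known as nuclear mitochondrial DNA segments. Heart muscle is among the tissues richest in mitochondria, so RNA of the mitochondrial genome is abundant in it. Sequencing reads from a mitochondrial gene and from a recent nuclear copy of it can be identical.

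Poly(A) RNA was sequenced from the hearts of 3 mice with a disrupted Otub1 allele (Otub1 +/-, called Het) and of 3 wild-type mice (Otub1 +/+, called WT). Every mouse of both genotypes had been given doxorubicin, an anthracycline that injures the heart, in 6 injections within 2 weeks, so no untreated heart stands beside them. OTUB1 is a deubiquitinase, an enzyme that removes ubiquitin from proteins. Strain, age and sex are not given in the labels, nor whether Otub1 was disrupted in all tissues, and each library is named by genotype and number.

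Otub1 stood at 4.83 to 6.65 FPKM in the Het hearts, against 14.2 to 15.4 FPKM in the WT hearts. Of the 8 cardiomyocyte markers examined, all were detected in every library, with a summed level of 7502 to 14722 FPKM in Het, against 16305 to 18575 FPKM in WT. Het 1 stood apart from the other libraries, with correlations of 0.844 to 0.887 to them across tested genes, and it had the lowest cardiomyocyte sum. It also had the highest sum over 6 erythroid markers, 5705 FPKM against 680.2 to 2404 FPKM in the other Het hearts and 1006 to 1395 FPKM across WT. In Het 3 the sum over 8 lung epithelial markers was 835 FPKM, against at most 0.334 FPKM in Het 1 and Het 2 and 0.931 FPKM in WT, where Scgb1a1 and Scgb3a2 were listed at 0 in each of these other libraries. A sum over 8 hepatocyte markers was 1.94 to 41.8 FPKM in Het, against 117 to 167 FPKM in WT, with Fabp1 and Fgb listed at 0 in Het 1 and Het 3. The part of these transcripts in the results below was not tested, and results on the copies are given with and without Het 1.

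The 6 copies lie side by side on the minus strand of chromosome 1, between 24611535 and 24616197 (GRCm38), a stretch of 4663 bases. Along that strand they follow the order of the mitochondrial genome. Gm29216 (ENSMUSG00000101249) matches the end of mt-Co1, which encodes the catalytic subunit of cytochrome c oxidase. Gm28661 (ENSMUSG00000102070) matches mt-Co2 and Gm28437 (ENSMUSG00000101111) matches mt-Co3, the other mitochondrially encoded subunits of that enzyme. Gm10925 (ENSMUSG00000100862) matches mt-Atp6, a subunit of the membrane part of ATP synthase, and its first 43 bases also lie in the overlapping mt-Atp8. Gm10222 (ENSMUSG00000067736) matches mt-Nd4l, and Gm28439 (ENSMUSG00000100131) matches the first part of mt-Nd4, both encoding subunits of respiratory complex I. Gm28439 and Gm10222 overlap by 4 bases. The spacing of the copies was that of the mitochondrial genes with a difference of 1 base: 1271 bases separated the starts of Gm28437 and Gm10222 on chromosome 1, and 1270 bases separated the starts of mt-Co3 and mt-Nd4l.

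The copies are identical in sequence to the mitochondrial genes over nearly all of their length. Gm28661, Gm10925, Gm28437, Gm10222 and Gm28439, of 681, 678, 783, 294 and 876 bases, had 0 mismatches to the mitochondrial reference. In all, 3791 of the 3804 annotated bases of the 6 copies lay in stretches without a mismatch. The annotated end of several copies stops just short of the stop codon of the parent, which is shown by the following pairs, with capitals on bases of the parent beyond the end of the copy. The last pair shows where Gm28439 ends inside mt-Nd4. Sequences are those of the reference transcripts of GENCODE M21 (GRCm38), 5′ to 3′.
Gm28661, chr1:24614885-24614914, minus strand: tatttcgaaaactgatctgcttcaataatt
mt-Co2, chrM:7664-7696, plus strand: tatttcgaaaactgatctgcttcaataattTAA
Gm10925, chr1:24613974-24614003, minus strand: ctagtaagcctatatctacatgataataca
mt-Atp6, chrM:8575-8607, plus strand: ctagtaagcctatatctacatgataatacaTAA
Gm28437, chr1:24613189-24613218, minus strand: ctatacgtctccatttattgatgaggatct
mt-Co3, chrM:9360-9390, plus strand: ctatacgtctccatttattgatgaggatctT
Gm28439, chr1:24611535-24611564, minus strand: aaatcactaatcgcctactcctcagttagc
mt-Nd4, chrM:11013-11072, plus strand: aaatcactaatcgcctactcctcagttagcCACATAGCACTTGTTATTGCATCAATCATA

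The mt-Co3 gene ends in a lone T, and a complete stop codon forms only when the poly(A) tail is added to its mRNA. Poly(A) tails are added to most mitochondrial mRNAs, which is why oligo(dT) selection retains them.

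Gm29216 was the member that differed from its parent, at 6 bases, all within its first 13. From base 14 to its end, 479 bases, it was identical to mt-Co1. The first 60 bases of both are shown, with capitals on the bases that differ.
Gm29216, chr1:24616138-24616197, minus strand: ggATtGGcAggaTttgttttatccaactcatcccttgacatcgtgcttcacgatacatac
mt-Co1, chrM:6381-6440, plus strand: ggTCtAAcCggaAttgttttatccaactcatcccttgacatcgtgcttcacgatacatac

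Gm10222 is the shortest member and is shown whole, as an example of a copy in which no read lying within it can be told from its parent. Its 294 bases are also the first 294 of mt-Nd4l.
Gm10222, chr1:24612407-24612700, minus strand: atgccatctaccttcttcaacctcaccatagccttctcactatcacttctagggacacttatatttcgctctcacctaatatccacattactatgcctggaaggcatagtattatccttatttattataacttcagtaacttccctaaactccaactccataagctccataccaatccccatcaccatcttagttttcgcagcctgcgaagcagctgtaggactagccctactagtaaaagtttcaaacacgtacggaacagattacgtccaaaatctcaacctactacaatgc

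Windows of 50, 100 and 150 bases were searched in the mitochondrial genes. For 5 of the copies 100% of windows of each length occurred there unchanged. For Gm29216 the share was 97.1% of 443 windows of 50 bases, 96.7% of 393 windows of 100 bases and 96.2% of 343 windows of 150 bases. The length of the reads is not given in the labels. A value listed for a copy therefore cannot be assigned to the nuclear locus or to the mitochondrial genome from these files, and every level below is the level listed under that name. The labels do not say how multiply mapped reads were assigned.

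The 6 copies together took 19.96%, 14.9% and 15.0% of summed FPKM in Het 1, 2 and 3, against 14.7%, 15.9% and 15.4% in WT 1, 2 and 3. Their sum was 152288, 85343 and 86224 FPKM in Het, against 79386, 92281 and 85142 FPKM in WT. Het 1 was highest, and the other Het libraries lay within the range of WT. The mean share was 16.6% ± 2.88 in Het and 15.3% ± 0.570 in WT (SD, n = 3 each), with an exact two-sided permutation p of 0.8, where the smallest p that 3 mice against 3 allow is 0.1. Without Het 1 the difference between Het and WT was −0.365 percentage points, in place of 1.298.

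**Figure D1:**
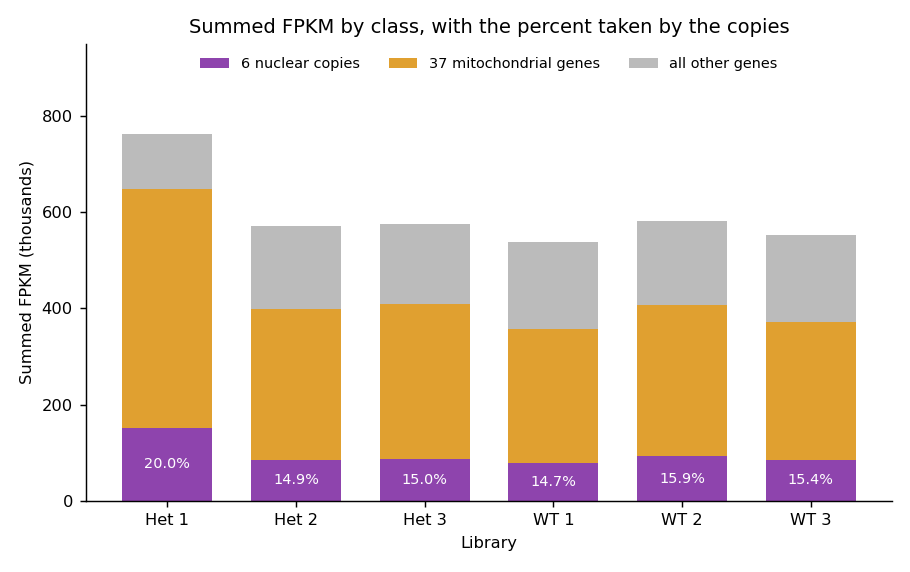
Summed FPKM (axis in kilo-units) of each library, split into the 6 nuclear copies (bottom), the 37 genes of the mitochondrial genome (middle) and all other genes (top), with the percent taken by the copies printed in each bar. Het 1 has the tallest copy segment (19.96%) and the shortest segment of other genes, and the other 5 libraries lie between 14.7% and 15.9%.

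The copies made up 90.3% to 95.1% of the FPKM listed for the table's 1086 pseudogenes. The 37 genes of the mitochondrial genome took 65.0%, 54.8% and 56.1% of summed FPKM in Het, against 51.5%, 54.0% and 51.8% in WT. Every Het library lay above every WT library, with Het 1 highest. The means differed by 6.18 percentage points, with an exact two-sided permutation p of 0.1, the smallest possible. Counted together, copies and mitochondrial genes took 84.9%, 69.7% and 71.1% in Het, against 66.2%, 69.8% and 67.2% in WT. In tissue libraries of this kind, fewer cells of a type and less RNA per cell cannot be told apart. All other genes summed to 114961, 172817 and 166444 FPKM in Het 1, 2 and 3, against 175421 to 181946 FPKM in WT. Every Het library lay below every WT library in that sum, with an exact two-sided permutation p of 0.1. As a share of copies and mitochondrial genes together, the copies stood at 23.5%, 21.4% and 21.1% in Het and at 22.2%, 22.7% and 22.9% in WT. Het minus WT was −0.616 percentage points for the mean of that share, with overlapping groups and an exact two-sided permutation p of 0.4.

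FPKM divides by length, so short genes weigh more in a sum of FPKM than in reads. Multiplied back by annotated length, the copies corresponded to 10.1%, 5.61% and 5.71% of mapped fragments in Het, against 5.21%, 6.11% and 5.60% in WT. Their parents corresponded to 28.7%, 17.2% and 17.4% in Het, against 15.8%, 18.1% and 16.6% in WT.

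Levels of each copy are set beside those of its parent, starting with the cytochrome c oxidase genes. Gm29216 stood at 19471, 6936 and 6088 FPKM in Het 1, 2 and 3, against 6803, 8766 and 7890 FPKM in WT 1, 2 and 3. Its parent mt-Co1 stood at 104385, 66171 and 68001 FPKM in Het, against 61076, 68022 and 63371 FPKM in WT. Het 1 was highest for both, and for Gm29216 Het 3 was lowest. Gm28661 stood at 26292, 17237 and 18176 FPKM in Het, against 15326, 18356 and 18205 FPKM in WT. Its parent mt-Co2 stood at 27782, 18661 and 18501 FPKM in Het, against 16363, 21630.2 and 18639 FPKM in WT. In both genes WT 1 was lowest and the groups overlapped. Gm28437 stood at 31859, 17597 and 18019.7 FPKM in Het, against 16373, 19956 and 17802 FPKM in WT. Its parent mt-Co3 stood at 33779.7, 18349.6 and 18296 FPKM in Het, against 16771, 20438 and 18479.9 FPKM in WT. The libraries kept a like order in both, with Het 1 highest, WT 2 next and WT 1 lowest.

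For ATP synthase, Gm10925 stood at 42783, 22533 and 23039 FPKM in Het, against 20679, 24399.6 and 21396 FPKM in WT. It ranked 4th or 5th among all genes in every library, the highest of the 6 copies. Its parent mt-Atp6 stood at 43031, 21616 and 21826 FPKM in Het, against 19795, 23414 and 20640.4 FPKM in WT. Het 1 stood far above the rest in both, at 1.91 times and 2.01 times the mean of the other 5 libraries, and the other Het libraries lay inside the range of WT.

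For complex I, Gm10222 stood at 13582, 11176 and 10875 FPKM in Het, against 10618, 10517 and 10438 FPKM in WT. Every Het library lay above every WT library, and the WT libraries lay close together. Its parent mt-Nd4l stood at 14502, 11216 and 10867 FPKM in Het, against 10569, 10661 and 10449.9 FPKM in WT, also without overlap. Gm28439 stood at 18300.4, 9863 and 10026 FPKM in Het, against 9587, 10286 and 9412 FPKM in WT. Its parent mt-Nd4 stood at 33819.6, 17558 and 17401 FPKM in Het, against 16539, 18868 and 16992 FPKM in WT. Het 1 stood above the rest in both genes, and the groups overlapped.

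**Figure D2:**
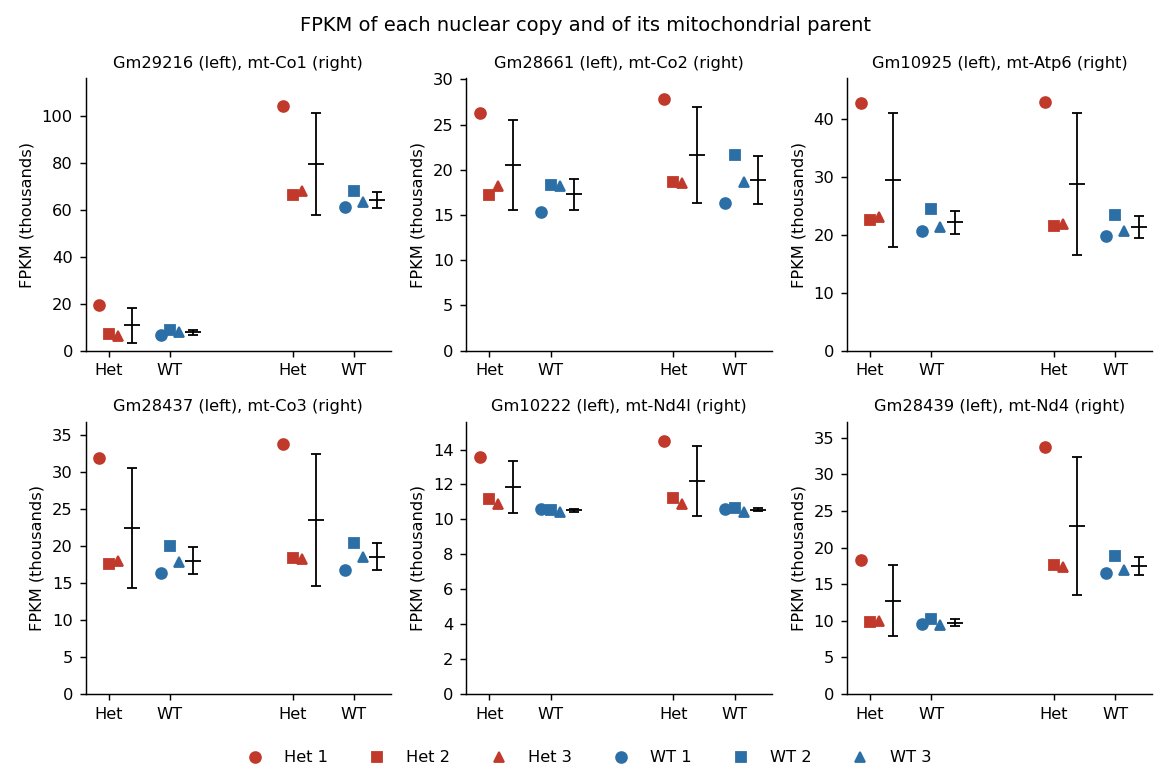
FPKM (axis in kilo-units) of each copy and its mitochondrial parent, with 1 panel per pair, the copy on the left and the parent on the right. Points are libraries (Het red, WT blue, symbols for library number), and black bars are the mean and SD of 3 libraries. Het 1 is the highest point in all 6 copies, and for Gm10222 every Het point lies above every WT point.

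Ordered by mean over the 6 libraries, the copies ran from Gm10925 (25805 FPKM) through Gm28437 (20268), Gm28661 (18932), Gm28439 (11246) and Gm10222 (11201) to Gm29216 (9326). The place of Gm28439 above Gm10222 rested on Het 1: Gm10222 was the higher of the pair in the other 5 libraries, whose means were 10725 FPKM for Gm10222 and 9835 FPKM for Gm28439. Among neighbours in that order, the ranges over the libraries overlapped in every case, but values of the same library are the closer comparison. Within libraries, Gm10925 lay above Gm28437 and Gm28661 above Gm28439 in all 6. Gm28661 lay above Gm28437 in Het 3 and WT 3, and Gm29216 lay above Gm10222 in Het 1. The size of the difference between Het 1 and the mean of the other 5 libraries was not the same across the copies. It was 2.67-fold for Gm29216, 1.91-fold for Gm10925, 1.86-fold for Gm28439, 1.77-fold for Gm28437, 1.51-fold for Gm28661 and 1.27-fold for Gm10222. Gm28438 is the remaining annotated gene of the block and matches mt-Nd3, a subunit gene of complex I. It is not among the chosen members and was listed far below them, with a mean of 1163 FPKM. It stood at 2675, 764 and 752 FPKM in Het, against 808, 1034 and 946 FPKM in WT, and Het 1 was 3.11-fold above the mean of the others. The lowest member, Gm29216, stood at 6088 FPKM or more in every library.

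The ratio of a copy to its parent was higher for copies that cover nearly all of the parent than for those that cover part of it. Whether cover sets the ratio was not tested. Gm29216, which had the lowest ratio, also differs from its parent at 6 bases. Gm28661, Gm10925, Gm28437 and Gm10222 cover 99.6%, 99.6%, 99.9% and 99.0% of their parents, and their ratios lay between 0.849 and 1.056 in all 6 libraries. Gm10925 came to 0.994, 1.04 and 1.056 of mt-Atp6 in Het, against 1.04, 1.04 and 1.04 in WT. Gm28437 came to 0.943, 0.959 and 0.985 of mt-Co3 in Het, against 0.976, 0.976 and 0.963 in WT. Gm10222 came to 0.937, 0.996 and 1.00 of mt-Nd4l in Het, against 1.00, 0.987 and 0.999 in WT. The copy and the parent were thus listed at nearly equal levels in these pairs. Gm28661 varied most among them, at 0.946, 0.924 and 0.982 of mt-Co2 in Het and at 0.937, 0.849 and 0.977 in WT.

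Gm28439 and Gm29216 cover part of their parents and stood below them. Gm28439, which covers 63.6% of mt-Nd4, came to 0.541, 0.562 and 0.576 of it in Het, against 0.580, 0.545 and 0.554 in WT. Gm29216, identical to 31.0% of mt-Co1, came to 0.187, 0.105 and 0.0895 of it in Het, against 0.111, 0.129 and 0.124 in WT. The last was the pair with the widest relative range, and Het 1 and Het 3 were its highest and lowest libraries.

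**Figure D3:**
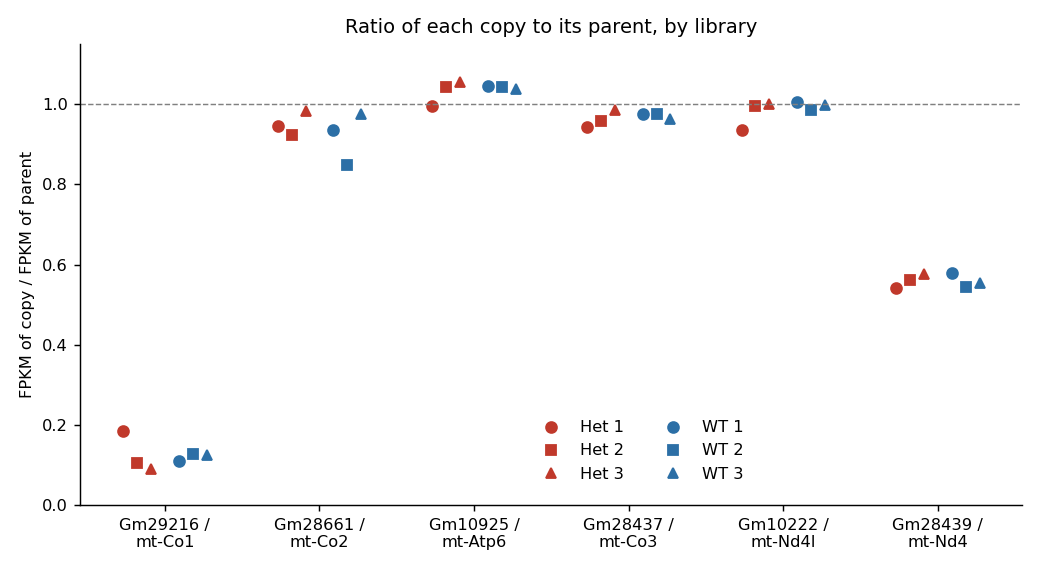
FPKM of each copy divided by FPKM of its parent, by library (Het red and left, WT blue and right within each pair, symbols for library number). The dashed line marks equal values; the pairs of near full length lie between 0.849 and 1.056, Gm28439 between 0.541 and 0.580, and Gm29216 between 0.0895 and 0.187.

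For each pair the ratios of Het and WT overlapped. The summed copies over the summed parents came to 0.592, 0.556 and 0.557 in Het, against 0.563, 0.566 and 0.573 in WT. On the log2 scale the mean was −0.82 ± 0.052 in Het and −0.82 ± 0.014 in WT (SD, n = 3 each), a difference of 0.0016 with an exact two-sided permutation p of 1. Without Het 1 the difference was −0.028. For the single pairs the log2 differences of Het from WT lay between −0.028 (Gm10222) and 0.049 (Gm28661). Their exact two-sided permutation p values lay between 0.6 and 1, and each was 1 after Benjamini-Hochberg adjustment over the 6 copies. For Gm29216 the difference was −0.0099 with all libraries and −0.32 without Het 1, where both remaining Het libraries lay below WT.

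Nuclear copies that differ from the mitochondrial genome at more bases were listed at far lower levels. Of 55413 annotated nuclear genes searched, 29 matched the mitochondrial genes at 80% identity or more over at least 50% of their exonic bases, and 11 of the 29 were in the table analysed here. These 11 were the 6 members and 5 others. Gm28438, in the same block, was identical to mt-Nd3 in 99.0% of its 50-base windows and stood at 90.0% to 92.9% of its level.

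The other 4 lie elsewhere. Gm13340 (chromosome 2, 22588103 to 22589647) spans all of mt-Co1 at 97.6% identity, and Gm13341 (chromosome 2, 22587291 to 22587962) matches mt-Co2 at 95.9% identity. Of their 50-base windows 27.5% and 35.96% occurred unchanged in the mitochondrial genes. Gm13340 stood at 44.1 to 134 FPKM, 0.0666% to 0.128% of mt-Co1, and Gm13341 at 19.2 to 25.8 FPKM, 0.0928% to 0.128% of mt-Co2. Gm13339, in the same region of chromosome 2, stood at 0.0252% to 0.0673% of mt-Nd2, and Gm4076 on chromosome 13 stood at 0.00377% to 0.0101% of mt-Nd5. A copy of mt-Co2 identical to it in every window was thus listed at 0.849 to 0.982 times its level, and a copy at 95.9% identity at no more than 0.128% of it. These points share libraries and parents, and no test was made of the relation.

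**Figure D4:**
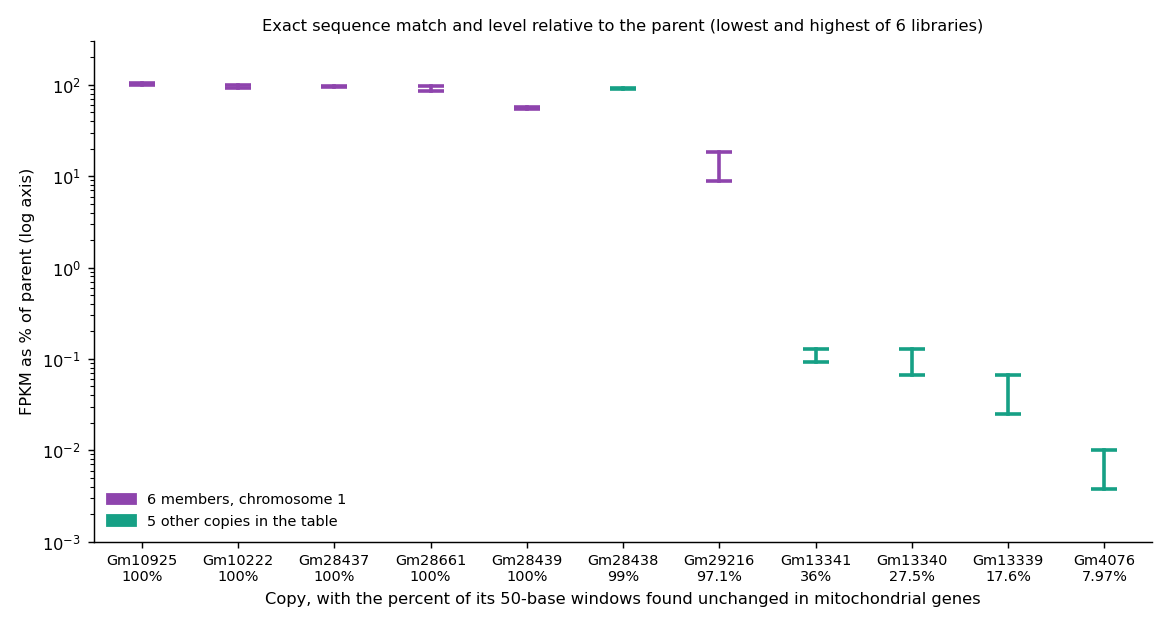
FPKM of each of the 11 nuclear copies in the table as a percent of its mitochondrial parent, on a log axis, with the lowest and the highest of 6 libraries joined by a line. Copies are ordered by the percent of their 50-base windows found unchanged in the mitochondrial genes, printed under each name. All 7 copies on chromosome 1 lie above the 4 copies on other chromosomes, the highest of which reaches 0.128%.

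Between the genotypes, each copy had a higher mean FPKM in Het than in WT, and none passed the test. Values were compared as log2(FPKM + 1) with limma over 11096 genes, those whose mean reached 1 FPKM, and an adjusted p under 0.05 was called. Of all genes tested, 0.018% were called, namely Mup17 and Hnrnpa3, both lower in Het and named after their values were seen. Of the 6 copies 0 were called, and 0 had an unadjusted p under 0.05, where 0.802% of all tested genes were higher in Het at that level. Gm10925 averaged 29452 ± 11548 FPKM in Het and 22158 ± 1974 FPKM in WT (SD, n = 3 each), with a log2 fold change of 0.35 (SE 0.30) and a limma adjusted p of 0.753. Gm28439 averaged 12730.0 ± 4825 FPKM in Het and 9762 ± 462 FPKM in WT, a log2 fold change of 0.32 (SE 0.30). Gm29216 averaged 10832 ± 7494 FPKM in Het and 7819.5 ± 984 FPKM in WT, a log2 fold change of 0.27 (SE 0.46). Gm28437 averaged 22492 ± 8115 FPKM in Het and 18043 ± 1804 FPKM in WT, a log2 fold change of 0.27 (SE 0.29). Gm28661 averaged 20568 ± 4979 FPKM in Het and 17296 ± 1707 FPKM in WT, a log2 fold change of 0.23 (SE 0.24). Gm10222 averaged 11878 ± 1484 FPKM in Het and 10524 ± 90.2 FPKM in WT, a log2 fold change of 0.17 (SE 0.20). The limma adjusted p values of the 6 copies lay between 0.753 and 0.812.

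Over all tested genes the median log2 fold change was −0.18, and the median over the copies was 0.27. Set against the median of all genes, the copies stood between 0.35 (Gm10222) and 0.53 (Gm10925). On the scale as deposited every copy lay above 0, as did 23.4% of all tested genes. With quantile normalization Gm28661, Gm28437 and Gm10222 lay below 0 (−0.041, −0.031 and −0.11). That setting assigns values by rank within a library, so it cannot show a change of level shared by the genes of top rank. With the values rescaled by median ratios the median of all genes was −0.016 and the copies lay between 0.39 and 0.57. Gm10222 was the only copy for which every Het library lay above every WT library, where 1.83% of all tested genes did so, and its exact two-sided permutation p was 0.1. The authors' deposited table lists the copies with log2 fold changes from 0.17 to 0.47 and adjusted p values from 0.813 to 0.840.

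The sizes of these differences rested on Het 1. Without it, the log2 fold changes were 0.044 for Gm10925, 0.038 for Gm28661, 0.028 for Gm28439, 0.067 for Gm10222, −0.014 for Gm28437 and −0.26 for Gm29216. The adjusted p of the copies then lay between 0.449 (Gm29216) and 0.962 (Gm28437). The median over all tested genes without Het 1 was −0.035. Gm10222 kept both remaining Het libraries above every WT library.

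**Figure D5:**
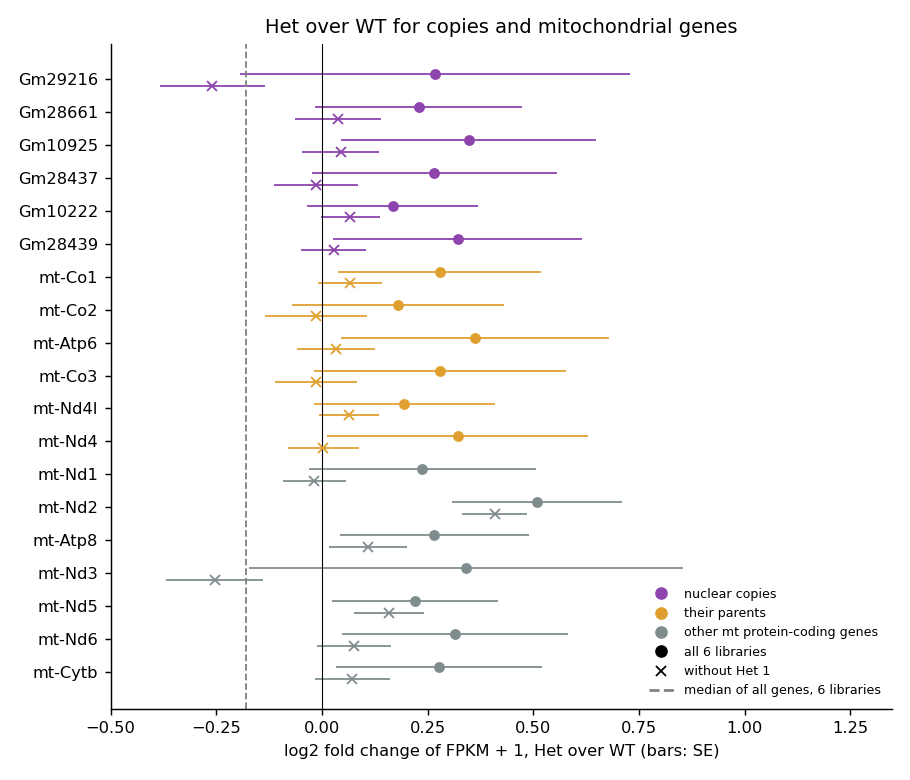
log2 fold change of FPKM + 1, Het over WT, with SE from limma, for the copies, their parents and the remaining protein-coding genes of the mitochondrial genome, from all 6 libraries (circles) and without Het 1 (crosses). The dashed line is the median of all tested genes with 6 libraries (−0.18). With 6 libraries every point lies above 0, and without Het 1 the copies lie between −0.26 and 0.067.

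The mitochondrial genes around the copies had a like pattern. All 13 protein-coding genes of the mitochondrial genome had a log2 fold change above 0, from 0.18 to 0.51, with a median of 0.28, and 0 were called. As for the copies, this rested on Het 1. Without it mt-Nd3 (−0.25), mt-Nd1 (−0.018), mt-Co3 (−0.014) and mt-Co2 (−0.013) lay below 0. The others then lay between 0.0034 (mt-Nd4) and 0.41 (mt-Nd2). The 6 parents had a median of 0.28, and the 5 protein-coding genes outside the block, which have no copy in it, also had a median of 0.28. Of those outside, mt-Nd2, a complex I subunit, had the largest fold change and stood at 27130.1, 21281 and 22802 FPKM in Het, against 16211, 17422 and 16180.0 FPKM in WT. Its groups did not overlap, and its log2 fold change was 0.51 (SE 0.20, limma adjusted p 0.753) and 0.41 without Het 1. Of the 22 tRNA genes limma called 0, with 3 at an unadjusted p under 0.05, and 20 were above 0. The tRNA genes of smallest p were mt-Tq, mt-Ti and mt-Tm, which lie between mt-Nd1 and mt-Nd2 and outside the block. mt-Tq stood at 2587, 3908 and 4608 FPKM in Het, against 1087, 991 and 1002 FPKM in WT, a log2 fold change of 1.81 (SE 0.28, limma adjusted p 0.376). The authors' deposited table gives these 3 genes adjusted p values of 9.89e-36 (mt-Tq), 3.35e-18 (mt-Tm) and 3.18e-06 (mt-Ti). In this gene Het 1 was the lowest Het library, whereas it was the highest library in every copy. Without Het 1 the limma adjusted p was 0.00107 for mt-Tq and mt-Tm and 0.0144 for mt-Ti. With library weights and all 6 libraries it was 2.24e-04 for mt-Tq and mt-Tm and 0.00385 for mt-Ti. Leaving out another Het library gave no such calls: the limma adjusted p was 0.536 for each without Het 2. Without Het 3 it lay between 0.190 (mt-Tq) and 0.294 (mt-Tm). The 2 rRNA genes, mt-Rnr1 and mt-Rnr2, had log2 fold changes of 0.82 (SE 0.65) and 0.49 (SE 0.48). With 7270.3 and 7865 FPKM in Het 1 they stood far above the other Het libraries, at 1278 to 1753 and 2315 to 2706 FPKM, and WT, at 1274 to 1796 and 2447 to 2941 FPKM. The copies too were highest in that library.

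A list of nuclear genes for mitochondrial RNA synthesis and handling also held some, such as Polg and Twnk, that act on mitochondrial DNA. No gene of the list passed the test, and its median fold change lay near that of all genes. Of 39 such genes listed, 36 were tested, 4 had a log2 fold change above 0 and 32 below, where 76.6% of all tested genes lay below 0, and 0 were called. Their median was −0.23, beside −0.18 for all tested genes. Much of this rested on Het 1: without it 20 of 35 lay below 0, beside 58.0% of all tested genes, with medians of −0.037 and −0.035. Grsf1, which binds mitochondrial RNA, stood at 11.4, 52.4 and 47.4 FPKM in Het 1, 2 and 3, against 54.5, 46.2 and 55.0 FPKM in WT, and is named after its values were seen. For 8 of them every Het library lay below every WT library, as for 15.6% of all tested genes. Mrm3, a methyltransferase of the mitochondrial large rRNA, had the smallest p, with 5.26 ± 1.17 FPKM in Het and 9.02 ± 1.45 FPKM in WT (SD, n = 3 each, limma adjusted p 0.753). Mrm1, a methyltransferase of the same rRNA, came next, with 4.38 ± 0.571 FPKM in Het and 5.89 ± 0.873 FPKM in WT. Supv3l1, the helicase of the mitochondrial RNA degradosome, stood at 5.83, 11.01 and 11.2 FPKM in Het, against 15.2, 12.4 and 13.2 FPKM in WT.

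Among 11049 tested genes outside the mitochondrial genome and its copies, the profile over the 6 libraries most like that of the summed copies was that of Pwwp3a, with a root mean square difference of 0.035 on the mean-centred log2(FPKM + 1) scale. St6galnac2, Zfp653, Deaf1 and Dlg3 followed, at 0.039 to 0.053. The median gene differed by 0.51. Pwwp3a stood at 4.67, 2.07 and 2.19 FPKM in Het, against 1.94, 2.46 and 1.98 FPKM in WT, with Het 1 highest as in the copies. Pwwp3a and the genes that followed lay between 1.03 (Dlg3) and 5.54 FPKM (Deaf1). Adding 1 shrinks fold changes at such levels and hardly at those of the copies, so the likeness holds on this scale only. Among mitochondrial genes the nearest was mt-Co3, at 0.027.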

How the data were processed

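Poly(A) RNA from 3 Het and 3 WT hearts was measured as stranded (dUTP) libraries, per the labels' protocols. Among tools, the submitters' processing notes name HISAT2 2.0.4 and StringTie 1.3.4d with the build mm10, besides DESeq2, edgeR and cutadapt 1.9, and give no roles. The deposited table holds FPKM, a unit inferred from the values and from StringTie being named. Beside them, per the file headers, stand the authors' p-value and q-value, fold change, log2 fold change and −log10 p-value for Het over WT. Read depth is unknown, so errors are the spread between mice. The labels name no batch.

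The table analysed holds FPKM and not counts, so limma took the place of a count model. Genes averaging 1 FPKM or more were compared on log2(FPKM + 1) with version 3.58.1 of limma in R 4.3.3 (trend and robust), adjusted by Benjamini-Hochberg over 11096 genes. Single values were compared with exact two-sided permutation tests. Reference transcripts (GENCODE M21, GRCm38, in which 14596 of 14956 identifiers were found) were aligned with blastn 2.17.0 to the mitochondrial sequence joined from its annotated genes. The parent was the gene with the longest alignment. No genome sequence was used.

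The copies and gene lists were chosen with earlier results of these data known. Named genes were the copies, their parents, mitochondrial genes by class, other copies by mean, genes of the mitochondrial RNA list by smallest p and the 5 genes of most alike profile. Figures were drawn with matplotlib 3.10.9.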

Additional observations from a re-analysis of the deposited data

How the results depend on the processing

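None of the 6 copies was called under any alternative setting; over copies and settings, 84 values in all, the limma adjusted p lay between 0.449 and 0.962. The number of genes called, 2 with all libraries, was 1 with median-ratio scaling, scaling without mitochondrial genes and copies, quantile normalization or the replicate block, 22 with library weights, and 1 to 38 when single libraries were left out. It was 8 without Het 1, 25 without Het 2, 38 without Het 3, and 1 without WT 1, WT 2 or WT 3. The log2 fold change of Gm29216 was −0.20 with library weights and from −0.26 to 0.58 with single libraries left out; that of Gm28437 was from −0.014 to 0.41. With quantile normalization, Gm28661, Gm28437 and Gm10222 stood at −0.041, −0.031 and −0.11. This setting gives genes of the same rank the same value in every library. The copies ranked from 4 to 19 among all genes, so it cannot show a change of level shared by genes of top rank. mt-Co1, at rank 1 in every library, came to 1.58e-16.

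The difference in the share of the copies, 1.298 percentage points, was −0.616 as a share of copies and mitochondrial genes, 30.1 (exact permutation p 0.3) as a percent of the FPKM of all other genes, and −0.365 to 2.14 with single libraries left out. The value of 30.1 rested on Het 1: as a percent of all other genes the copies stood at 132% there. They stood at 49.4% in Het 2 and 51.8% in Het 3, against 43.6% to 52.6% in WT. The log2 ratio of copies to parents differed by −0.0031 as a mean of single ratios and by −0.028 to 0.017 with single libraries left out, where it was also negative without WT 1. Ratios with sign changes when single libraries were left out were Gm29216 (−0.32 to 0.20), Gm28661 (−0.0090 to 0.092), Gm10925 (−0.032 to 0.011), Gm10222 (−0.045 to 0.0028) and Gm28439 (−0.021 to 0.026). The sum of FPKM times length, added after seeing the data, kept the sign. The labels do not say whether replicate numbers pair the hearts, and no pairing was seen: the correlations of deviations were −0.20, −0.43 and 0.21. Of 6 libraries, 1 correlated best with its own number. So few libraries, with Het 1 apart from the rest, cannot exclude pairing. Each number occurs in both genotypes, so the replicate block leaves every fold change as it was and cannot test its sign. Depth is unknown, so no counting error can be given.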

Other observations

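Adding the FPKM of each copy to that of its parent changed the order of the mitochondrial protein-coding genes by mean FPKM over the 6 libraries. Taken alone, mt-Atp6, mt-Co3 and mt-Co2 ranked 5, 6 and 7 of 13, below mt-Cytb, mt-Atp8 and mt-Nd1 at 2, 3 and 4. With the copies added they ranked 2, 3 and 4. The ranks taken alone depended on Het 1: without it, an alternative chosen after seeing the data, mt-Nd2 ranked 6, mt-Co2 7 and mt-Co3 8, with means of 18779, 18759 and 18467 FPKM. With the copies added, mt-Atp6, mt-Co3 and mt-Co2 ranked 2, 3 and 4 without Het 1 as well. In that sum mt-Atp6 averaged 58276 ± 23851 FPKM in Het and 43441 ± 3867 FPKM in WT, and mt-Co2 averaged 42217 ± 10277 FPKM in Het and 36173 ± 4189 FPKM in WT (SD, n = 3 each). mt-Nd4l moved to rank 9, where it ranked 12 alone, and mt-Co1 stayed at rank 1. Gm29216 and Gm28439 match only 31.0% of mt-Co1 and 63.6% of mt-Nd4, so for these pairs the sum does not describe a single shared sequence. mt-Atp8 lies wholly inside the block, but no annotated copy has it as parent. Nothing was added to mt-Atp8, and its rank went from 3 to 7. Gm28438, not a member, was not added to mt-Nd3, which was listed at rank 13.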
